A study of Mus musculus with 22 samples.

Results

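The comparison set 6 S-type astrocytes against 5 non-responding (NR) astrocytes, 11 of the 22 single cells of the series. All cells were cortical astrocytes of C57BL/6 mouse pups (P0 to P1) grown in primary culture from single pups, and every cell was recorded with a fluorescent calcium indicator while EtOH was applied. An S-type cell answered EtOH with a slow and sustained calcium signal, and an NR cell did not answer it. The other cells of the series were T-type (transient signal, 6 cells) and M-type (mixed signal, 5 cells). Before the recording all cultures had been shaken and treated with cytosine arabinoside, an antimitotic agent, to remove other cell types, and serum had been withdrawn. Each cell was drawn into a pipette after its signal was classified, so the class of a cell came from its calcium trace and not from its RNA. The paper chose its highest EtOH dose for the sequencing experiments, and it compares cells collected earlier and later after a short EtOH exposure. Neither the labels nor the methods name the pup, the culture or the collection time of a single cell. Each type therefore counted as 1 sample, and no p-value or standard error is given between the types.

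Astrocytes are electrically silent glia that signal by calcium. In the usual route a receptor coupled to Gq activates phospholipase C, the product IP3 opens channels of the endoplasmic reticulum (ER), and pumps and store-operated channels then refill the store. Cortical astrocytes divide in the first postnatal days and in culture, so a culture holds cycling cells beside resting ones. Progress through the cell cycle is held back by Rb1, which blocks E2F transcription factors until cyclin-dependent kinases inactivate it. E2F factors then turn on replication genes, and a later group of genes, many with a CHR promoter element, is turned on in G2 and mitosis.

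Read counts were divided by the size factor of their cell to give normalized counts, and these were averaged over the cells of a type to give its level. Ratios are log2 of the S-type level over the NR level, so a positive value means higher in S-type. The interval given with a ratio is a 95% interval for counting error only, since many amplified reads can stem from 1 molecule. How far the cells differ is shown by the cell values and by leaving out each cell in turn. S-type values are given as the lowest, the median and the highest of the 6 cells. NR values are listed for J182_2, J183_1, J185_4, J186_5 and J187_6 in this order.

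Total counts lay between 12229280 and 16254761 in the S-type cells, which had a read for 9768 to 11914 genes, and between 15057892 and 19930655 in the NR cells, which had a read for 9696 to 13070 genes. Of 23453 gene symbols, 16403 had a read in the 11 cells and 9183 had one in at least 9 of them. Over these 9183 genes the median Spearman correlation across genes was 0.588 within S-type (15 pairs), 0.584 within NR (10 pairs) and 0.590 between the types (30 pairs). By the median of its correlations, a cell was closer to its own type in 6 of 6 S-type and 1 of 5 NR cells. Most similar to 4 of 6 S-type and 2 of 5 NR cells was another cell of their own type. All 5 NR cells had 158 to 9817 reads of the Y-linked genes and at most 2 reads of Xist. In S-type, J153_6 and J156_16 had 3737 and 6891 Y-linked reads, and the other 4 cells had at most 13. Xist had 513 to 4110 reads in J150_3, J151_5, J153_6 and J154_8, so J153_6 held reads of both kinds, and whether it held RNA of more than 1 cell was not tested. Without J153_6, 1928 genes were at least 2-fold higher and 1836 lower. Among the leading genes named below, it is the highest S-type cell for Rb1, Pcnxl4, Tcf3 and Gm16516, whose ratios are given with and without it. Pup and response type therefore cannot be told apart here.

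Astrocyte markers were read in both types, with 18 of 20 passing the filter on 9 cells. Their levels were lower in S-type for 14 of the 18, with a median log2 ratio of -0.62. The share higher was 22.2%, against 50.1% of all genes. None was at least 2-fold higher and 6 were at least 2-fold lower (33.3%, against 18.1% of all genes). Without J150_3 and J151_5 the median was -0.97, beside -0.14 for all genes. They took 0.352% to 1.68% of the reads of an S-type cell and 0.383% to 1.85% of an NR cell. No microglia marker passed, and the 14 together took at most 0.000886% of the reads of an S-type cell against 7.35e-05% to 0.0161% of an NR cell. Of these, Aif1, Csf1r, Tmem119, C1qa, C1qc and Laptm5 had no read in S-type and 49 to 2256 reads in NR. No endothelium marker passed. Of the markers of neurons (2 of 12 passing), the oligodendrocyte lineage (4 of 10), mural cells and fibroblasts (4 of 10) and ependymal cells (3 of 8), the highest share was 0.944% in S-type cell J155_9, for mural cells and fibroblasts. The part of these cells in the results was not tested.

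About as many genes were higher as lower in S-type, a balance that the size factors favour, since they centre most genes near no difference. Of the 9183 genes, 4603 (50.1%) had the higher level in S-type, 1790 (19.5%) were at least 2-fold higher and 1665 (18.1%) at least 2-fold lower. In 923 of the 1790 genes, a single S-type cell held most of the S-type signal, and J151_5 (406 genes) and J150_3 (289 genes) did so most often. In 1057 of the 1665 genes a single NR cell held most of the NR signal, J187_6 in 501 of them. A 2-fold ratio alone thus often came from 1 cell. Genes that kept all cells of 1 type apart from all cells of the other were few, 22 (0.24%) with every S-type cell above every NR cell and 21 (0.229%) with every S-type cell below. With so few cells, some of the 9183 genes would do so even if the cells stood in random order. How many was not tested, so these counts do not show that the types differ. Any single gene of these, also a leading gene named below, could be such a gene.

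**Figure D1:**
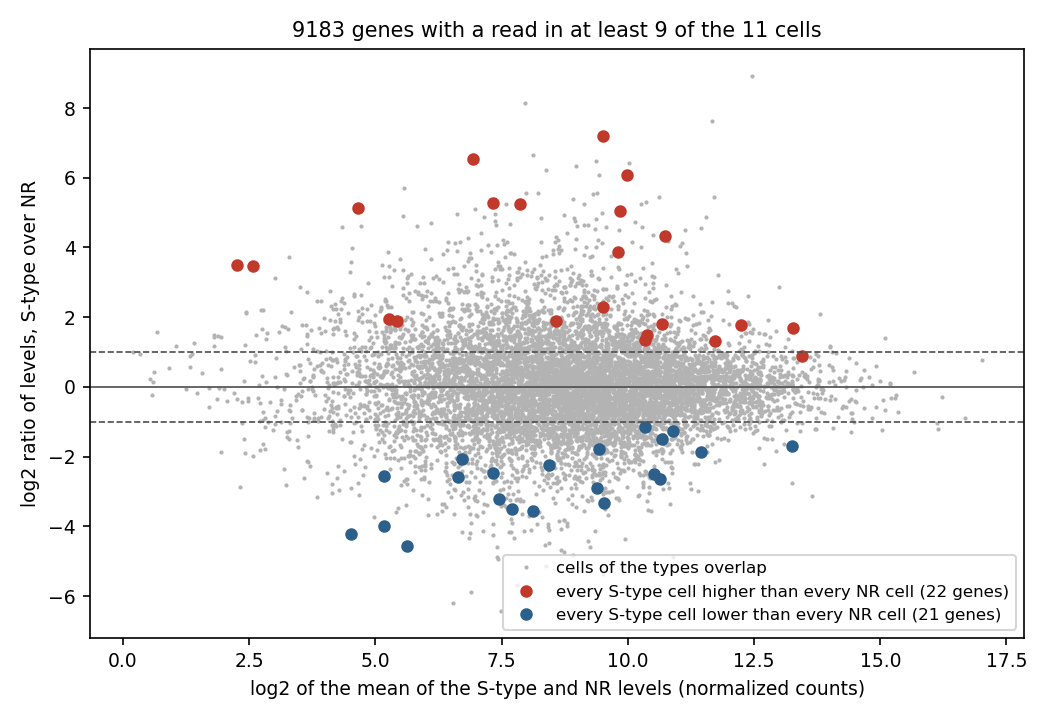
Log2 ratio of the S-type over the NR level (vertical axis) against the log2 of the mean of both levels in normalized counts (horizontal axis) for the 9183 genes, 1 point per gene. Red and blue points mark the 22 and 21 genes whose cells did not overlap, dashed lines mark a 2-fold difference, and the grey points spread about equally above and below 0.

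Several genes of DNA replication and chromosome segregation were higher in every S-type cell. The 12 with the largest ratios, among genes that averaged 10 or more normalized counts over the 11 cells, included Mcm4, Rfc3, Pold2, Tipin and Cenpl, and the cell cycle inhibitor Cdkn2d. Mcm4 (chr16:15623897-15637400, with this and all gene positions from GENCODE vM21 on GRCm38), a subunit of the replicative helicase, had normalized counts of 203, 359 and 9629 in S-type and 3.04, 131, 2.16, 10.8 and 0 in NR. All 6 S-type cells were above the highest NR cell, J183_1, and J151_5 stood far above the other S-type cells. The log2 ratio was 6.09 (counting interval 5.91 to 6.27), and it was 4.00 without J151_5 and 8.97 without J183_1.

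Rfc3 (chr5:151642756-151651242), a subunit of the clamp loader that sets the replication clamp on DNA, had normalized counts of 53.4, 446 and 839 in S-type. NR values were 4.25, 22.7, 25.2, 7.18 and 0, so J154_8, the lowest S-type cell, was still above J185_4, the highest NR cell. Its log2 ratio was 5.25 (counting interval 4.96 to 5.57), and no single cell decided it, with 4.93 without J187_6 and 5.73 without J185_4. Pold2 (chr11:5872180-5878292), the accessory subunit of DNA polymerase delta, had 28.02, 47.3 and 1619 in S-type and 3.64, 17.6, 2.16, 0 and 17.6 in NR. The S-type level came mostly from J151_5, and the log2 ratio of 5.26 (counting interval 4.89 to 5.66) was 2.70 without J151_5 and 5.75 without J187_6.

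Tipin (chr9:64281581-64305424), which travels with the replication fork and protects stalled forks, had a read in all 11 cells. Its normalized counts were 566, 1157 and 2166 in S-type and 24.9, 337, 521, 0.598 and 349 in NR. J156_16, the lowest S-type cell, was just above J185_4, and the log2 ratio was 2.29 (counting interval 2.21 to 2.36). Cenpl (chr1:161070713-161086724), a protein of the inner kinetochore, had 8.76, 220.1 and 601 in S-type against 6.07, 5.10, 0, 1.79 and 0 in NR. At these few NR reads (22 in all) the log2 ratio of 6.55 had a counting interval of 5.94 to 7.22, and in S-type the values ran from J154_8, close to the NR cells, to J156_16.

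Cdkn2d (chr9:21288410-21291407), an inhibitor of the cyclin D-dependent kinases, had 139, 266 and 6615 in S-type and 3.64, 91.9, 129, 0.598 and 43.6 in NR. J150_3 and J151_5 held the high values, and the log2 ratio of 5.06 (counting interval 4.91 to 5.20) was 3.94 without J150_3 and 5.68 without J185_4. It was 1.97 without J150_3 and J151_5.

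The promoters of Cenpl and Rfc3 are shown because both genes were higher in every S-type cell and both windows hold E2F-type motifs. Windows cover 250 bases before to 50 bases after the gene start, from RefSeq (GRCm38.p6). Capitals mark motifs found on either strand. E2F-type motifs were searched as TTCCCGC and in the variant forms TTGGCGC and, as the last form searched, TTCGCGC. The CHR element was searched as TTTGAA. The Cenpl window is chr1:161070517-161070816 (plus strand) and the Rfc3 window is chr5:151651159-151651458 (minus strand).
Cenpl: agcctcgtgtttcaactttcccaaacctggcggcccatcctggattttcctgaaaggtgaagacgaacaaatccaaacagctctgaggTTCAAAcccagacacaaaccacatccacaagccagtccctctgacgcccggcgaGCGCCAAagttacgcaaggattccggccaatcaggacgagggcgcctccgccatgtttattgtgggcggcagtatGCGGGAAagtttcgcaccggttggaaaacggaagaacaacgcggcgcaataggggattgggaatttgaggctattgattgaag
Rfc3: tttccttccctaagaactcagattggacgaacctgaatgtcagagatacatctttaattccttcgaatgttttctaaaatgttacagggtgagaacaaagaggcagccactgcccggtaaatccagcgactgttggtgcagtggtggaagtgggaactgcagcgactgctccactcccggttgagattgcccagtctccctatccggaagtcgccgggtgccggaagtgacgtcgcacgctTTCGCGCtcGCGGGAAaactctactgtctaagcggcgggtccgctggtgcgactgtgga
The Cenpl window held 2 E2F-type motifs and 1 CHR element, and the Rfc3 window held 2 E2F-type motifs and no CHR element. Among the other leading genes higher in S-type, Mlf1 held an E2F-type motif, and Mto1, Pold2, Shmt2 and Cdkn2d held none. Mcm4, Tipin, Rab27b and Rnps1 had no promoter in the reference used. The motifs are matches of letters, and binding was not measured.

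The other leading genes higher in S-type had varied roles. Mto1 (chr9:78448208-78475348), which modifies mitochondrial tRNAs, had normalized counts of 228, 488 and 3719 in S-type and 44.9, 1.13, 2.88, 0 and 0 in NR. The NR reads came almost wholly from J182_2, and the log2 ratio of 7.20 (counting interval 6.88 to 7.54) was 6.65 without J150_3 and 10.49 without J182_2. Shmt2 (chr10:127517123-127522444), a mitochondrial enzyme that makes one-carbon units from serine, was low, with 4.45, 20.5 and 181.98 in S-type and 3.04, 1.70, 0.719, 0.598 and 0.927 in NR. With 359 reads in S-type and 11 in NR its log2 ratio was 5.14 (counting interval 4.29 to 6.16), and 4.03 without J155_9.

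Rab27b (chr18:69979131-70141605), a GTPase of secretory vesicles, had 412, 2529 and 10179 in S-type and 288, 99.8, 0, 267 and 154.8 in NR, a log2 ratio of 4.33 (counting interval 4.25 to 4.42). Its S-type level was highest in J150_3, without which the log2 ratio was 3.54. Mlf1 (chr3:67374097-67400003) had 393, 658 and 6718 in S-type and 311, 262, 0.719, 0 and 0 in NR. Here NR cells split, with J182_2 and J183_1 close to the lowest S-type cells and the rest at or near 0, and the log2 ratio of 3.86 (counting interval 3.76 to 3.95) was 2.51 without J151_5 and 4.66 without J182_2.

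Rnps1 (chr17:24414565-24425901), an RNA-binding protein of splicing, had 39.02, 46.1 and 116 in S-type against 18.8, 17.6, 20.1, 23.3 and 0 in NR. The 4 NR cells with a read were within a narrow range, all below the lowest S-type cell, J151_5. Its log2 ratio was 1.95 (counting interval 1.66 to 2.24).

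**Figure D2:**
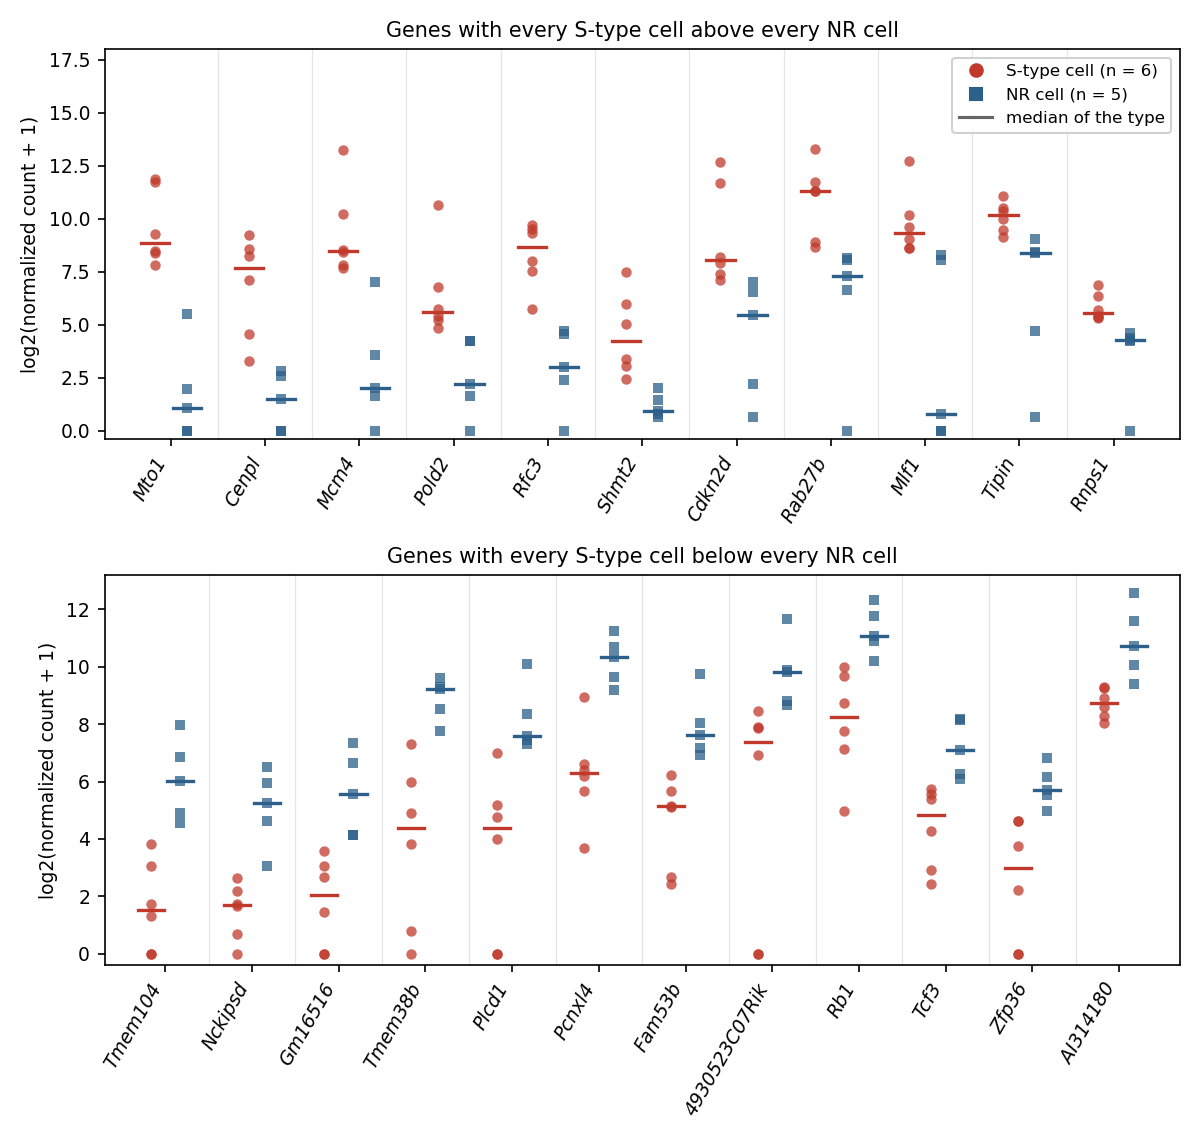
Normalized counts of 23 leading genes in each of the 6 S-type cells (red circles) and 5 NR cells (blue squares), on a log2(normalized count + 1) axis, with short lines for the median of each type. In the upper panel every circle is above every square of its gene and in the lower panel every circle is below, as the choice of genes fixed.

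In T-type and M-type cells the same genes did not follow 1 pattern. Some T-type cells were read less deeply, with total counts from 2937786 (J163_18) to 19279519 (J165_23). The T-type cells had a read for 6319 (J162_16) to 10614 (J166_25) genes. The part of depth in low T-type medians was not tested. The median of Mcm4 was 2256 in T-type and 356 in M-type, near or above the S-type median of 359. For Cenpl the T-type median of 10.8 was close to the NR values, and the M-type median of 154.7 was within the S-type range around its median of 220.1. Mlf1 had medians of 1.56 in T-type and 0 in M-type, below every S-type cell. Cdkn2d had medians of 10.96 in T-type and 85.1 in M-type, both inside the NR range.

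Beyond these 12, another 8 genes at a level of at least 10 were higher in every S-type cell, with log2 ratios of 0.89 to 1.88, and 2 more were below that level. Actn1, alpha-actinin, which cross-links actin filaments at adhesions, had 6921, 12044 and 34215 in S-type and 5007, 5959.7, 4713, 3638 and 4090.1 in NR, with NR cells close to each other and a log2 ratio of 1.68 (counting interval 1.66 to 1.70). Tpm3, a tropomyosin, had 2926, 4943 and 6932 in S-type and 1007, 2865, 2641, 2433 and 754 in NR, with a log2 ratio of 1.32. The rest are named after their values were seen. Vapa, a tether of the ER to other membranes, had 3614, 6486 and 15371 in S-type against 1872, 3412, 1601, 2616 and 1569 in NR, and Creb3, a transcription factor anchored in the ER, 1546, 2049 and 2425 against 372, 1056, 478, 989 and 570.1. Tmed10, a cargo receptor between the ER and the Golgi, had the smallest ratio of the 8, 0.89, with 10304, 11491 and 24733 against 9950.4, 7585, 9354, 5648 and 6770.2. Scoc, Pofut2 and Acot13 had log2 ratios of 1.79, 1.88 and 1.36.

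The S phase and G2/M lists held the largest ratios of all lists, and most of that came from 2 S-type cells. Of 43 S phase genes, 25 passed the filter, 22 of these were higher in S-type and 19 were at least 2-fold higher (76.0%, against 19.5% of all genes), with a median log2 ratio of 2.59 against 0.0041 for all genes. Of 54 G2/M genes, 28 passed, 26 were higher and 19 at least 2-fold higher (67.9%), with a median of 2.40. Of the members with a read that did not pass, 18 of 18 and 26 of 26 had the higher level in S-type, against 51.8% of the 7220 genes that did not pass. Without J150_3 and J151_5 these were 13 of 18 and 16 of 26, against 43.1%. Among the passing members of both lists, Mcm4 and Tipin were the only ones that had cells that did not overlap.

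By cell, the S phase genes took 0.576% of the reads in J150_3 and 1.30% in J151_5, and the G2/M genes took 2.62% and 1.33%. In the other 4 S-type cells the S phase share was 0.0660% to 0.276% and the G2/M share 0.156% to 0.393%. In NR cells the S phase share was 0.0558% to 0.113% and the G2/M share 0.114% to 0.256%. The ranges of S-type and NR cells overlapped for both lists, with J150_3 and J151_5 and without them. Without J150_3 and J151_5 the median of the S phase list was 0.99 (17 of 25 higher) and that of the G2/M list -0.060 (13 of 28 higher), beside -0.14 for all genes. With single cells left out, the S phase median ran from 1.46 without J151_5 to 3.35 without J186_5, and the G2/M median from 1.77 without J150_3 to 3.04 without J185_4.

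**Figure D3:**
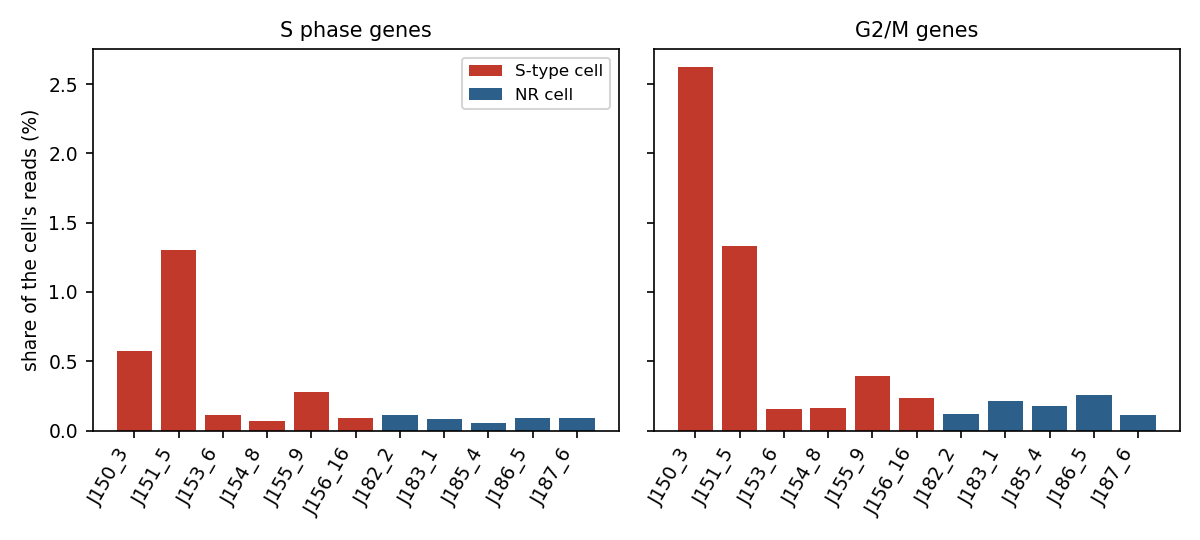
Share of the reads of each cell in percent (vertical axis) taken by the 43 S phase genes (left) and the 54 G2/M genes (right), 1 bar per cell, S-type in red and NR in blue. J150_3 and J151_5 reach 0.576% and 1.30% for S phase and 2.62% and 1.33% for G2/M, above all other cells.

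Of the passing G2/M members, Tubb4b, Anp32e and Ckap2 had the most reads. Ckap2, a protein of the spindle, had 166.3, 598 and 27168 in S-type with 27168 in J150_3, and 0, 364, 365, 420.4 and 0 in NR. Its log2 ratio of 4.55 (counting interval 4.48 to 4.61) was 2.13 without J150_3 and 0.75 without both J150_3 and J151_5. Anp32e, a histone chaperone, had 1922, 5572 and 18254 in S-type and 1033, 2555, 2472, 441 and 262 in NR, a log2 ratio of 2.41. J156_16 was its second highest S-type cell, and without J150_3 and J151_5 the ratio was 1.71. Tubb4b, a beta-tubulin, had 4250.4, 9057 and 33706 in S-type and 1935, 4419, 7359, 11158 and 10704 in NR, a log2 ratio of 0.84 that was -0.087 without J150_3 and J151_5.

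Cdk1 and Ccnb2, the mitotic kinase and 1 of its cyclins, were chosen after their values were seen as the usual examples of G2/M genes. Cdk1 had 9435 in J150_3 and 11321 in J151_5, but 233, 4.38, 1041 and 31.2 in the other S-type cells, and 0, 280.2, 266, 1379 and 0 in NR. Ccnb2, which did not pass the filter, had 12298 in J150_3 and 245 in J151_5, at most 31.9 in the other S-type cells and 0, 28.4, 0, 33.5 and 0 in NR. Outside the 2 cells neither gene set the types apart. Top2a and Mki67, the usual markers of cycling cells, had 27257 and 5702 in J150_3, 17707 and 21408 in J151_5, and at most 579.7 and 12.2 in the other 4 S-type cells. In NR they reached 727 and 94.2, both in J183_1.

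The promoters of these 2 genes are shown because they belong to the later, G2/M group of genes. Capitals mark the same motifs, the windows have the same length, and they are at chr10:69352863-69353162 (minus strand) for Cdk1 and chr9:70421505-70421804 (minus strand) for Ccnb2 (RefSeq, GRCm38.p6).
Cdk1: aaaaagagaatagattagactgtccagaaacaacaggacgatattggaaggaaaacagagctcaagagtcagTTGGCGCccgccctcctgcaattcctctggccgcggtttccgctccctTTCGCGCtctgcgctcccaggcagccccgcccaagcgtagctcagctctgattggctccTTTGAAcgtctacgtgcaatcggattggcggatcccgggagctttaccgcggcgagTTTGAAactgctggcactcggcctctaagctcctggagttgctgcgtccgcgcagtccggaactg
Ccnb2: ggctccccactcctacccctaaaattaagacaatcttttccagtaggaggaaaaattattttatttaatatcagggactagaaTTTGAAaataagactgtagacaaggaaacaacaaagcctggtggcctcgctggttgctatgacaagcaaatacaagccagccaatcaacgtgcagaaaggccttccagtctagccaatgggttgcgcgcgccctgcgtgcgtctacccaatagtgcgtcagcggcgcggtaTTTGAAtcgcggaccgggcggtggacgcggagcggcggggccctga
Each held 2 CHR elements, and the Cdk1 window also held 2 E2F-type motifs. Over the lists, 33 of 46 G2/M promoters (71.7%) held a CHR element, against 6 of 30 S phase promoters (20.0%), 13.0% of the 6974 promoters of genes that passed and 20.2% of all 27025 promoters in the table. An E2F-type motif stood in 20 of 30 S phase promoters (66.7%) and 9 of 46 G2/M promoters (19.6%), against 17.9% and 9.2%. The CCAAT box (CCAAT, either strand, which can overlap the E2F-type TTGGCGC) was in 70.0% and 76.1%, against 43.4% and 41.1%. Among the leading genes with a promoter in the table, Mlf1 and Zfp36 held an E2F-type motif beside Cenpl and Rfc3, and Pold2 held a CHR element beside Cenpl.

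Genes of the list of cell cycle inhibitors were mostly lower in S-type. Of 18 genes 15 passed, 10 were lower and 6 at least 2-fold lower (40.0%, against 18.1% of all genes), with a median log2 ratio of -0.82. Another 4 were at least 2-fold higher (26.7%, against 19.5% of all genes). Not every member holds back the cycle, since the list includes Mdm2, which opposes p53. Mdm2 and the cyclin gene Ccng1 were among the lower members, at -0.95 and -1.24. Rb1 (chr14:73183673-73325822), the retinoblastoma protein, had normalized counts of 30.3, 321 and 1024 in S-type and 1913, 1169.6, 3441, 5092 and 2138 in NR. J153_6, the highest S-type cell, came close to J183_1, the lowest NR cell, and J151_5 had the lowest value of all 11 cells. The log2 ratio was -2.63 (counting interval -2.69 to -2.58), with -3.07 without J153_6 and -2.29 without J186_5. T-type and M-type cells had medians of 1842 and 2217, inside the NR range.

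Against the direction of the list, Cdkn2d and Cdkn2c, both inhibitors of the cyclin D-dependent kinases, were higher. Cdkn2c, named after its value was seen, had 3149.7 in J150_3, 2960.1 in J151_5 and at most 242 in the other S-type cells, and 0, 199.7, 13.7, 0.598 and 0 in NR. Without J150_3 and J151_5 the log2 ratio of Cdkn2c was 0.96 in place of 4.65. Trp53 and Rbl2, also at least 2-fold higher at 2.45 and 1.67, were at 0.14 and -1.50 without them. The list median was -0.84 without the 2 cells, but 0.13 when the level of a type was the median in place of the mean over its cells.

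The other genes lower in every S-type cell included Plcd1 and Tmem38b of calcium signalling and Zfp36 of mRNA decay. Plcd1 (chr9:119071527-119093502), a phospholipase C of the delta class, which is itself stimulated by calcium, had 0, 20.4 and 127 in S-type and 173.6, 156.6, 1085, 189 and 325 in NR. J150_3 and J151_5 had no read, and the highest S-type cell, J154_8, was below J183_1. The log2 ratio was -3.51 (counting interval -3.70 to -3.33), with -4.67 without J154_8 and -2.64 without J185_4. Tmem38b (chr4:53826045-53862019), a cation channel of the ER membrane that balances charge during calcium release, had 0, 21.3 and 156.8 in S-type and 776, 217, 622, 367 and 589.6 in NR. S-type values ran from no read in J151_5 to J154_8, still below J183_1, and the log2 ratio was -3.56 (counting interval -3.72 to -3.39), and -4.61 without J154_8. For both genes T-type medians were low, 8.75 for Plcd1 and 0.912 for Tmem38b, and M-type medians were 97.3 and 199.6. Some T-type cells were read less deeply, and the part of depth in these low medians was not tested.

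Zfp36 (chr7:28376784-28380253), which binds AU-rich elements and speeds the decay of mRNAs, had 0, 8.04 and 23.7 in S-type and 30.4, 51.05, 45.3, 112 and 69.5 in NR, a log2 ratio of -2.55 (counting interval -2.91 to -2.20) on 77 and 465 reads. Tcf3 (chr10:80409514-80433647), a basic helix-loop-helix factor, had 4.38, 29.7 and 52.4 in S-type and 137, 76.01, 66.9, 288 and 285 in NR, a log2 ratio of -2.60 (counting interval -2.81 to -2.39). Both genes had few reads in S-type. Over the cells left out, Zfp36 was -2.96 without J154_8 and -2.22 without J186_5, and Tcf3 was -2.87 without J153_6 and -2.32 without J186_5.

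Among the leading genes the lowest ratios belonged to Tmem104 (chr11:115187487-115247023), a membrane protein, at -4.55 (counting interval -5.11 to -4.04), and Nckipsd (chr9:108808368-108818844), an adaptor that binds Nck, at -4.23 (counting interval -5.06 to -3.51). Tmem104 had 0, 1.92 and 13.1 in S-type and 114, 28.9, 22.3, 246 and 63.97 in NR, and Nckipsd had 0, 2.26 and 5.26 and 23.7, 7.37, 61.1, 37.1 and 89.00. With 32 and 16 S-type reads both ratios rest on few counts, and Tmem104 was -5.42 without J154_8 and -3.82 without J186_5. Gm16516 (chr11:60920917-60931867), at -4.01 (counting interval -4.54 to -3.52) and -4.555 without J153_6, is annotated as an RNA antisense to Map2k3. With no statement on strand in the counting, its reads cannot be told apart from those of the opposite gene.

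The remaining leading genes were read more deeply. AI314180 (chr4:58798911-58912749, Ecpas in the annotation), an adaptor of the proteasome, had 261, 430.3 and 626 in S-type and 1073, 679, 1674, 6004 and 3105 in NR, the narrowest spread in S-type among the 12 and a log2 ratio of -2.49 (counting interval -2.55 to -2.44). Without J186_5, the highest NR cell, it was -1.88. Pcnxl4 (chr12:72536383-72580119) had 11.9, 77.7 and 489.7 in S-type and 1654, 577, 1276, 801 and 2413 in NR, 4930523C07Rik (chr1:160044382-160080208) 0, 176.05 and 348 and 937, 444, 403, 897 and 3221, and Fam53b (chr7:132712082-132813886) 4.44, 34.2 and 74.2 and 195, 119, 259, 859 and 142. Their log2 ratios were -3.33, -2.92 and -3.22. Pcnxl4 was at -4.43 without J153_6, 4930523C07Rik at -2.10 without J187_6 and Fam53b at -2.41 without J186_5.

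Another 9 genes were lower in every S-type cell with log2 ratios between -2.46 and -1.16. Ldhb, the lactate dehydrogenase chain that favours pyruvate, had 1046, 5078 and 7512 in S-type and 7970.2, 15620.4, 14787, 11432 and 25041 in NR, a log2 ratio of -1.70 (counting interval -1.71 to -1.68). The rest are named after their values were seen. Itga7, a laminin-binding integrin chain, had 6.28, 16.4 and 122 in S-type and 181.5, 250.1, 253, 296 and 379 in NR, a log2 ratio of -2.46. Pygb, the brain form of glycogen phosphorylase, had 153.6, 871 and 1459 against 1469, 2767, 3817, 2036 and 2012, and J154_8 lay just below J182_2. Hsd17b4, an enzyme of peroxisomal fatty acid oxidation, had 92.1, 1275 and 2077 against 2763, 2577, 3291, 5036 and 8354. Trak2, Ei24, Asf1a, Fbxw5 and 2210408F21Rik had log2 ratios of -1.78, -1.26, -1.16, -2.08 and -2.24.

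Some genes differed in detection. Of the 16403 genes with a read, 9 (0.0549%) had a read in all 6 S-type cells and in at most 1 NR cell, and 6 (0.0366%) had a read in all 5 NR cells and in at most 1 S-type cell. Nusap1, a spindle protein of the G2/M list, had 4683, 1953, 50, 9, 1423 and 1 reads in the S-type cells and 1714 reads in J183_1 as the only NR cell. Mios, Zdbf2, Zdhhc15 and Lsm11 were likewise read in J183_1 alone among NR cells, with 639, 206, 609 and 94 reads, and had 2324, 1854, 1324 and 717 reads in S-type. A few S-type cells had only 1 to 6 reads of these genes, so the pattern is one of detection, and the log2 ratios of these 5 genes were 1.52 to 3.48. The other 4 genes had fewer reads. Ccdc14 had 379 reads in S-type and 1 in NR, a log2 ratio of 8.68 (counting interval 6.19 to 13.99), and Myo16 had 285 and 1, a log2 ratio of 8.0 (interval 5.51 to 13.30). In S-type, 235 of the Myo16 reads were in J153_6. Plxna4 had 147 and 27 reads and Rasl10b 90 and 9, log2 ratios of 2.62 and 3.47.

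In the other direction, Srgn, serglycin, a proteoglycan of secretory granules, had no read in S-type and 1, 1137, 144, 2 and 4 reads in NR. With 3 reads over the type as the floor, S-type was at least 375-fold lower, and at least 67.8-fold lower without J183_1. Microglia, which make much Srgn, had their markers at 0.00725%, 0.0109%, 0.000186%, 0.0161% and 7.35e-05% of the reads of the NR cells in the same order, and their part in the Srgn reads was not tested. Igf2bp1, an mRNA-binding protein of immature cells, had no read in S-type and 16, 7, 296, 203 and 6 in NR, at least 175.7-fold lower on the same floor and at least 87.4-fold lower without J185_4. Cish, a feedback inhibitor of JAK-STAT signalling, had 2 reads in S-type, both in J155_9, and 47, 60, 336, 351 and 46 in NR, a log2 ratio of -8.73 (counting interval -11.78 to -6.88). Of these genes only Cish had more than 40 reads in every NR cell. Tcerg1l had 3 reads in S-type and 259 in NR (log2 ratio -5.93, interval -8.22 to -4.37), and Gm5069 had 8 and 65.

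Genes of calcium handling showed no common direction. Of 30 genes of ER calcium release and refill 18 passed, 10 were higher in S-type, 3 were at least 2-fold higher and 2 at least 2-fold lower (16.7% and 11.1%, against 19.5% and 18.1% of all genes), with a median of 0.31. The 2 lower genes were Plcd1 and Plcb1, a phospholipase C driven by Gq, which had log2 ratios of -3.51 and -1.63. The 3 higher genes were Calr, calreticulin, a calcium-binding chaperone of the ER (1.37), Orai2, a store-operated channel (3.36), and Plcb3 (1.46). Calr had 1958, 3147 and 8154 in S-type and 739, 2047, 3169.8, 1209.9 and 511 in NR, and the cells overlapped. Orai2 had 1.08, 40.7 and 222 and 20.03, 13.05, 1.44, 2.39 and 0, and 3 of 6 S-type cells were within the NR range. Without J154_8 the log2 ratio of Orai2 was 2.65.

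Of 39 genes of plasma membrane and mitochondrial calcium transport 21 passed, with 5 at least 2-fold higher and 5 at least 2-fold lower (23.8% each, against 19.5% and 18.1% of all genes) and a median of -0.047. The 3 with the most reads, the mitochondrial porins Vdac1 and Vdac2 and the plasma membrane pump Atp2b1, had log2 ratios of -0.039, -0.39 and 0.17 with overlapping cells. Vdac1 had 1948, 2469 and 3251 in S-type and 2584, 2552, 3289, 1655 and 2979.5 in NR, a difference smaller than the spread within either type. Leaving out single cells moved the median of the list from -0.24 without J156_16 to 0.087 without J185_4.

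A list of purinergic and glutamate receptors and of Gq-coupled receptors held 39 genes, not all of them coupled to Gq. Of the 39 genes 11 passed, 2 at least 2-fold higher and 4 at least 2-fold lower (18.2% and 36.4%, against 19.5% and 18.1% of all genes). The list median was -0.12, ran from -0.76 without J154_8 to 0.62 without J182_2 and was 0.44 without J150_3 and J151_5, so it had no stable sign. Ednrb, F2r and Gria2, an endothelin, a thrombin and a glutamate receptor, had the most reads and log2 ratios of 0.48, 0.80 and 0.60, with overlapping cells. Gria2 was at -0.89 without J156_16. P2rx7, an ATP-gated channel, had 1.08, 12.3 and 236 in S-type and 487, 286, 121, 0 and 3068 in NR, a log2 ratio of -3.83 that was -2.01 without J187_6. Lpar1, a receptor of lysophosphatidic acid, had 1053, 2926 and 7487 and 349, 139, 1946, 729.7 and 1550.0, a log2 ratio of 1.95, and all S-type cells but J150_3 and J155_9 were above the highest NR cell.

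**Figure D4:**
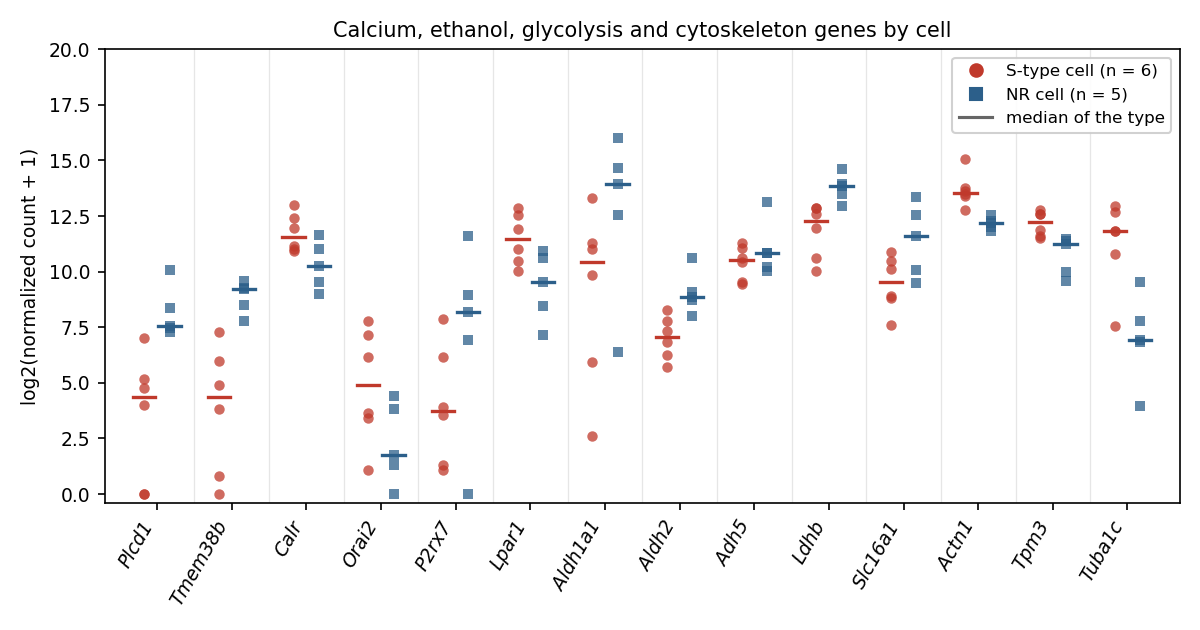
Normalized counts of 14 genes of calcium handling, receptors, EtOH metabolism, glycolysis and the cytoskeleton in each of the 6 S-type cells (red circles) and 5 NR cells (blue squares) on a log2(normalized count + 1) axis, with short lines for the medians. Plcd1, Tmem38b, Ldhb, Actn1 and Tpm3 have cells that do not overlap, and the other 9 overlap.

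The passing enzymes of EtOH and acetaldehyde metabolism had the lower level in S-type, mostly by less than 2-fold. Of 16 genes 9 passed, 9 of 9 were lower, and 2 were at least 2-fold lower (22.2%, near the 18.1% of all genes), with a median log2 ratio of -0.83 that ran from -1.02 without J186_5 to -0.43 without J183_1. Aldh1a1, a cytosolic aldehyde dehydrogenase, had 5.19, 1503 and 10113 in S-type and 6015, 66894, 15642, 83.7 and 25967 in NR. Its log2 ratio was -3.13 (counting interval -3.15 to -3.11), but J183_1 held 58.4% of the NR signal, J186_5 was below 4 S-type cells, and the ratio was -2.19 without J183_1. Aldh2, the mitochondrial enzyme that clears acetaldehyde, had 50.9, 135 and 307 in S-type and 255, 461, 537, 428 and 1569 in NR, a log2 ratio of -2.08 (counting interval -2.18 to -1.99), and -1.46 without J187_6. J150_3 was the only S-type cell above the lowest NR cell.

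Adh5, the alcohol dehydrogenase of most tissues, had 695, 1486 and 2478 in S-type and 1843, 1846, 1177, 1042 and 9034 in NR. Its log2 ratio of -0.99 was 0.030 without J187_6, which stood far above the other NR cells. Aldh7a1 had 716, 1269 and 2146 and 1621, 1993, 3089, 1729.6 and 839, a log2 ratio of -0.45 with overlapping cells. Aldh3a2 was at -0.24, and at 0.25 without J150_3 and J151_5, when 1 of 9 was higher. Of the 7 members that did not pass, 2 had the higher level in S-type, 1 the lower and 4 no read. Adh1, Adh4, Adh7 and Aldh1a2 had no read in the 11 cells and Cyp2e1 had 1 read in NR. Aldh1a3, an enzyme of retinoic acid synthesis, had 951 reads in 3 S-type cells and none in NR.

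Glycolysis genes showed the lowest median of the lists, at -0.94, with 14 of 18 passing members lower in S-type and 8 at least 2-fold lower (44.4%, against 18.1% of all genes). The median ran from -1.12 without J182_2 to -0.79 without J187_6 and was -0.98 without J150_3 and J151_5, with 2 of 20 then higher. Beside Ldhb, the 8 were Hk2, Gpi1, Aldoc, Tpi1, Pgk1, Pgam1 and Slc16a1, with log2 ratios from -2.21 to -1.02. Slc16a1, a lactate and pyruvate transporter, had 195, 801 and 1879.7 in S-type and 5983, 3156, 1089, 712 and 10386 in NR, and a log2 ratio of -2.21 that was -1.57 without J187_6. For Slc16a1 and the rest of these genes the cells overlapped, and Ldhb was the only member in which they did not. Pdk1, which restrains pyruvate oxidation, was the only member at least 2-fold higher, at 1.74, and -1.39 without J150_3 and J151_5. The glycolysis genes took 0.175% to 0.445% of the reads of an S-type cell and 0.313% to 0.853% of an NR cell.

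Oxidative phosphorylation genes were slightly lower. Of 86 genes 77 passed, 57 were lower and 8 at least 2-fold lower (10.4%, below the 18.1% of all genes), with a median of -0.37 that ran from -0.56 without J182_2 to -0.066 without J187_6. The ATP synthase genes with the most reads pointed both ways. Atp5g3 was at 0.44, Atp5b at -0.58 and Atp5a1 at -0.92. Atp5b had 14202, 22398 and 43580.0 in S-type and 22832, 34652, 26780.5, 55603 and 44654 in NR, with overlapping cells. Of 35 antioxidant genes 33 passed, 6 at least 2-fold higher and 6 at least 2-fold lower (18.2% each, against 19.5% and 18.1% of all genes). Prdx6, a peroxiredoxin, was at -1.02, and -0.58 without J183_1. Sod1, superoxide dismutase, was at 0.85 and Prdx1 at 0.20, and Prdx1 was at -0.78 without J150_3 and J151_5.

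Cytoskeleton genes were mostly higher in S-type. Of 37 genes 35 passed, 27 were higher and 13 at least 2-fold higher (37.1%, against 19.5% of all genes), with a median of 0.77 that ran from 0.38 without J150_3 to 0.99 without J186_5. Without J150_3 and J151_5 the median was 0.34 with 22 of 35 higher, beside -0.14 for all genes. Tuba1c, an alpha-tubulin named after its value was seen, had 189.7, 3622 and 7825 in S-type and 14.6, 217, 733, 114 and 122 in NR. Its log2 ratio was 4.03, and only J151_5 was within the NR range. Acta2, smooth muscle actin, a marker of mural cells too, had 1465, 15752 and 72979 in S-type with the highest value in J155_9, and 132, 7629.6, 3338, 16193 and 203 in NR. Its log2 ratio of 2.08 was 1.28 without J155_9.

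Centrosome and cilium genes had a median of 0.67, with 28 of 40 passing members (of 51) higher, 13 at least 2-fold higher (32.5%, against 19.5% of all genes) and 7 at least 2-fold lower (17.5%, against 18.1%). Without J150_3 and J151_5 it was 0.26 with 24 of 42 higher, 10 at least 2-fold higher and 12 at least 2-fold lower. Kif3a, the motor of ciliary transport, had 201, 1962 and 2776 in S-type and 608, 1728, 1049.9, 600.5 and 299 in NR, a log2 ratio of 1.11 with overlapping cells. Ift57 and Ift74 of the ciliary transport particle were at -0.31 and -0.98.

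Cholesterol synthesis genes were higher for 17 of 23 passing members (of 24). Of the 23, 4 were at least 2-fold higher (17.4%, near the 19.5% of all genes) and 2 at least 2-fold lower (8.7%, against 18.1%). The median of 0.32 ran from 0.05 without J187_6 to 1.10 without J182_2. Without J150_3 and J151_5 it was 0.68 with 20 of 24 higher, beside -0.14 for all genes. Then 10 of 24 were at least 2-fold higher and 1 at least 2-fold lower, against 1522 and 2146 of 9852 genes. Sc4mol and Cyp51, which remove methyl groups from sterols, were at 0.80 and 0.13, and both varied over more than 100-fold among the S-type cells.

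Extracellular matrix genes had a median of -0.42 (12 of 31 passing members higher, of 40), and reactive astrocyte and complement genes -0.37 (4 of 17 higher, of 33). These were 38.7% and 23.5% higher, against 50.1% of all genes. At least 2-fold higher and lower were 16.1% and 12.9% of the matrix genes, against 19.5% and 18.1% of all genes. For the reactive genes these shares were 11.8% and 35.3%. Fn1, Ctgf and Timp3, the matrix genes with the most reads, were at -0.61, -0.34 and -0.57, and these were 0.023 for Fn1 without J182_2, 0.095 for Ctgf without J185_4 and 0.31 for Timp3 without J185_4. Vim, Cd44 and Gfap were at -0.30, -0.30 and -1.63. Gfap, the intermediate filament of mature astrocytes, had 6.21, 207 and 5158 in S-type and 521, 11046, 2906, 746 and 62.1 in NR, so its ratio rested on J154_8 and J183_1 and was -4.35 without J154_8 and -0.10 without J183_1.

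Immediate early genes, which are induced within minutes of a stimulus, pointed both ways. Of 25 genes 16 passed, 6 were at least 2-fold higher and 3 at least 2-fold lower (37.5% and 18.8%, against 19.5% and 18.1% of all genes), and the median of 0.30 ran from -0.29 without J156_16 to 0.73 without J186_5. Egr1, named after its value was seen, had 161.2, 1639 and 7922 in S-type and 565, 1277, 750.0, 1.20 and 0.927 in NR, a log2 ratio of 2.61 with overlapping cells. Fos was at -1.59, and Zfp36 was the only member whose cells did not overlap.

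JAK-STAT and SOCS genes had 17 of 24 members passing, 1 at least 2-fold higher and 4 at least 2-fold lower (5.88% and 23.5%, against 19.5% and 18.1% of all genes), with a median of -0.21. Il6st, the signalling chain of the interleukin 6 receptor family, had 249, 587 and 978 in S-type and 4034, 2723, 1581, 742 and 14715 in NR, a log2 ratio of -2.98 (counting interval -3.02 to -2.93). J186_5 was within the S-type range, and without J187_6 the ratio was -1.91. Of the other members at least 2-fold lower, Lifr, the receptor of leukemia inhibitory factor, was at -2.14 but at 0.84 without J182_2. Jak1 and Osmr were at -0.22 and -0.62 with overlapping cells. Cish did not pass the filter and is given above.

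Interferon and MHC class I genes (18 of 31 passing), chaperones (26 of 30) and cytosolic ribosomal proteins (80 of 86) had medians of -0.36, -0.049 and 0.060. Of all genes, 19.5% were at least 2-fold higher and 18.1% at least 2-fold lower. Among the interferon genes, 1 was at least 2-fold higher and 3 at least 2-fold lower (5.56% and 16.7%). The interferon median ran from -0.68 without J155_9 to 0.087 without J182_2, and B2m, Gbp3 and Ifit2 were at 0.30, -0.80 and -0.25 with overlapping cells. Only 1 passing member of the chaperone list was at least 2-fold higher (3.85%), Creld2 (3.05). None was at least 2-fold lower, and both shares were below those of all genes. Calr, a chaperone counted above with the ER calcium genes and not in this list, was at 1.37. Hspa5, Hsp90aa1 and Hsp90ab1 were at -0.61, 0.84 and -0.32. Of the ribosomal protein genes 1 was at least 2-fold higher and 1 at least 2-fold lower, Rpl22l1 (1.58) and Rpl34 (-1.53). At 1.25% each, these too were below the shares of all genes. Rpl7, Rps4x and Rpl23 were at 0.58, 0.67 and 0.17, with overlapping cells.

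**Figure D5:**
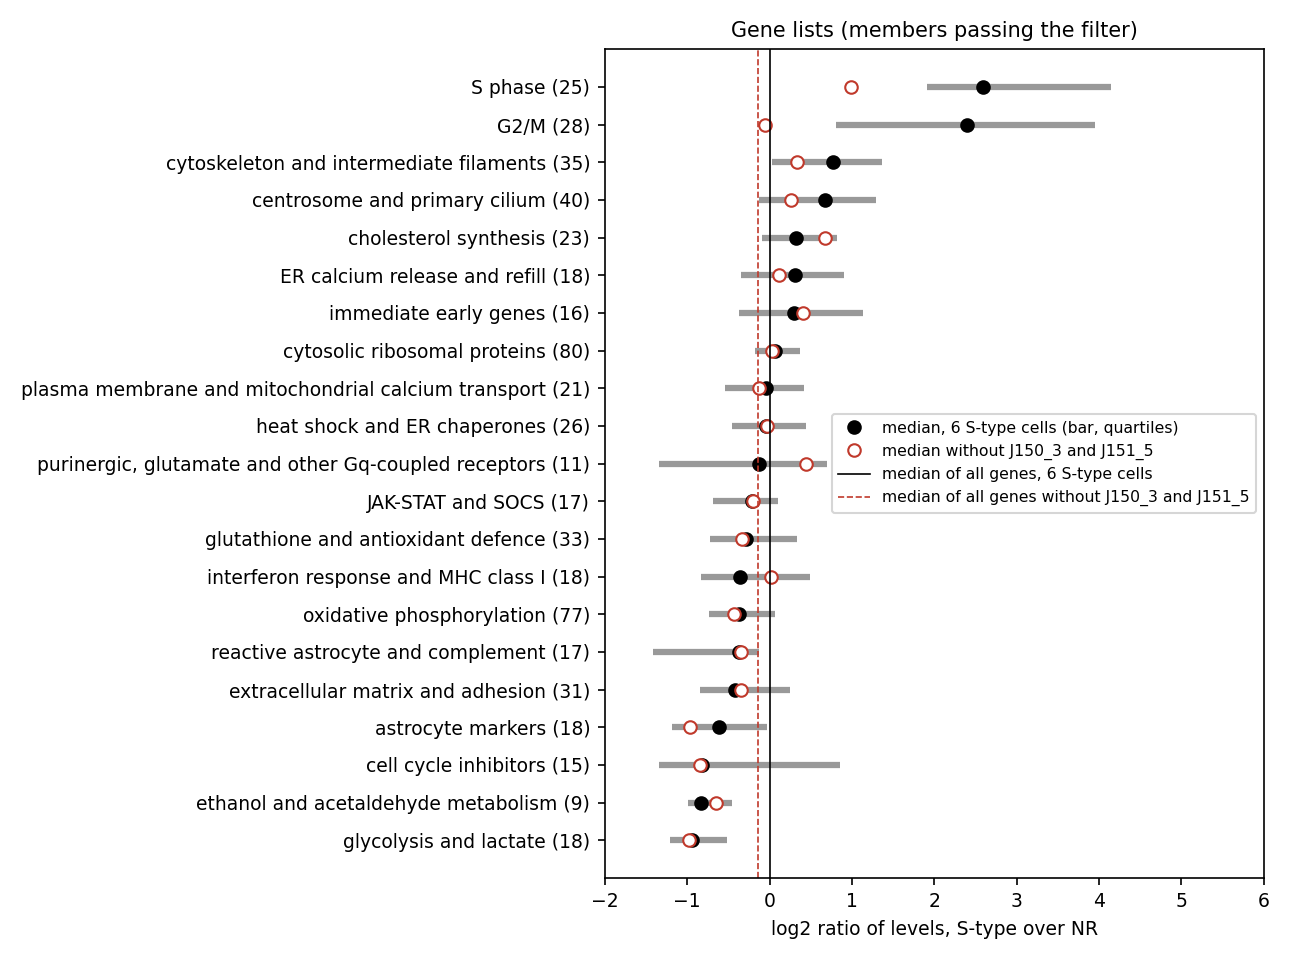
Median log2 ratio of the S-type over the NR level (horizontal axis) for each list with at least 5 members passing the filter (number in parentheses), with all 6 S-type cells (black points, grey bars from the first to the third quartile of the members) and without J150_3 and J151_5 (open red points). The S phase and G2/M medians move from 2.59 and 2.40 to 0.99 and -0.060, while the glycolysis median stays at -0.94 and -0.98.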

How the data were processed

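The deposited table held raw counts of reads per gene for 22 single cells, which the authors made by aligning paired reads to GRCm38 (mm10) with STAR and counting unique exonic reads with VERSE. RNA had been amplified linearly in 2 rounds, there were no molecular identifiers, and versions and the strand setting are not given in the sources used here. Each count was divided by the median-of-ratios size factor of its cell, taken over the 3670 genes read in all 22 cells. The filter asked for a read in at least 9 of the 11 cells. The members, lists and alternatives were chosen with earlier results of these data known. The type of a cell came from its label. Labels name no animal or culture, so a cell was not taken as a replicate and no test was run. The deposited count of a gene in a type gave an exact binomial counting interval at 95%, and total counts from 12229280 to 19930655 per cell set its width. Amplified reads are not independent molecules, so the intervals cover counting error only.

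Genes were named by 3 rules, the 12 largest ratios in each direction at a mean level of at least 10 among genes whose cells did not overlap, 3 members per list (first those whose cells did not overlap, otherwise those with most reads), and up to 5 genes per direction read in every cell of 1 type and at most 1 cell of the other. Genes outside these rules were chosen after their values were seen, also where a member of a list is given only by its ratio. Alternatives covered other scalings (TMM from edgeR 4.0.16 in R 4.3.3, CPM, factors over the 11 cells), other levels of a type, thinning, other filters and leaving out cells. The genes below the filter without 2 cells, and the bounds of Srgn and Igf2bp1 without single cells, were added after seeing the data. Python 3.11.15, NumPy 2.4.6, pandas 2.3.3, SciPy 1.17.1 and matplotlib 3.10.9 were used, and the script was tested on simulated data. T-type and M-type cells entered the size factors, and their medians were set beside S-type and NR values with no test. Some genes that these rules name are not reported here.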

Additional observations from a re-analysis of the deposited data

Results flagged for a closer look

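In the groups of 5 or 6 cells, 198 sets of values were searched for a single cell far from the rest of its type by Dixon's criterion, and 19 met it, where chance alone gives about 1 in 20. Among the shares of reads, the EtOH metabolism genes took 0.802% in NR cell J183_1, next to 0.253% in the nearest NR cell. In S-type, the centrosome and cilium genes took 0.326% in J151_5, the reactive astrocyte genes 1.77% in J155_9, the microglia markers 0.000886% in J153_6, the neuron markers 0.208% in J151_5 and the mural cell and fibroblast markers 0.944% in J155_9, each as the highest cell. In NR, the neuron markers took 0.0611% in J187_6, the highest cell, and the oligodendrocyte lineage markers 0.0212% in J185_4, the lowest.

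Among single genes, on the log2(normalized count + 1) scale, Pold2 stood high at 10.7 in S-type cell J151_5 and Adh5 at 13.1 in NR cell J187_6. Low cells in NR were J185_4 for Rab27b (0.0), J187_6 for Rnps1 (0.0), and J186_5 for Gria2 (0.0), Osmr (0.676) and Ift74 (5.25). Low cells in S-type were J155_9 for Atp5g3 (14.4), J150_3 for Gria2 (0.917) and Kif3a (7.66), and J151_5 for Ift57 (6.61).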

How the results depend on the processing

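No paired analysis was possible because the labels number no replicates and the comparison comes from no test. Of the results that summarise the comparison, 618 values under the alternatives stayed close to the reported one, 35 moved, and the median of G2/M, past 2-fold as reported, turned its sign under 1 of them. Counting medians under 2-fold too, 17 of the 26 list medians had another sign under at least 1 alternative (53 values). Without J150_3 and J151_5 the G2/M median was -0.0604, and 80 genes higher and 58 lower in S-type had cells that did not overlap, counts that fewer cells raise. Leaving out single cells gave 34 to 81 such genes higher and 32 to 51 lower, and 1617 to 2153 genes at least 2-fold higher and 1539 to 1952 lower. With a read in at least 5 cells 2730 genes were at least 2-fold higher, with no filter 4459 were higher and 4234 lower, and with a read in all 11 cells 986 were higher, 1028 lower and 11 higher with no overlap, since the number of genes tried differs. With the median over cells as the level, the medians were 0.134 for cell cycle inhibitors (0.0411 with the mean of logs), -0.540 for glycolysis, -7.88 for the sex-linked genes and 1.18 for mural cell and fibroblast markers. The cause was not tested. The median of all genes was 0.116 with the mean of logs and -0.141 without J150_3 and J151_5, and within 0.1 of 0 under the other settings. Single cells that held most of the signal of their type, in 923 of 1790 genes at least 2-fold higher and 1057 of 1665 lower, limit the ratios, and few reads in 1 type limit the lowest levels.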
